A study of Rattus norvegicus with 12 samples.

Results

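The 10 genes described here encode the Rel/NF-κB subunits and the IκB proteins that hold them: Nfkb1, Nfkb2, Rela, Relb, Rel, Nfkbia, Nfkbib, Nfkbie, Nfkbid and Nfkbiz. They were taken by symbol from the 34034 gene symbols of the count table, and all 10 were among the 14324 genes that passed the filter on low counts and were tested. RNA-seq had been run on INS-1E cells, an established rat insulinoma line used as a β-cell model, as 1 wild-type line. The libraries formed 4 groups of 3. Untreated cells received no cytokine. IL-1βlow cells received IL-1β at 10 pg/ml for 72 h, added fresh every 24 h. CYT cells were challenged with IL-1β at 100 pg/ml and IFN-γ at 5 ng/ml for 16 h. IL-1βlow + CYT cells received the low dose first and, after the medium was renewed, the same challenge. How long after the 72 h the unchallenged IL-1βlow cells were collected is not given in the sources used here. The question was how the NF-κB genes themselves responded to the challenge and whether preconditioning altered that response.

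NF-κB is a family of dimeric transcription factors that IκB proteins keep in the cytoplasm until a signal such as IL-1β activates the IκB kinase (IKK) complex. Degradation of IκBα, IκBβ or IκBε frees dimers that contain RelA or c-Rel, whereas the slower non-canonical branch works through processing of the Nfkb2 product and RelB. Several of the family's own genes are textbook NF-κB targets, so that the pathway renews its inhibitors and its subunits. In β-cells it is known as the route by which IL-1β switches on inducible nitric oxide synthase and chemokines.

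The promoter sequences are shown because several of these genes are textbook NF-κB targets. Whether NF-κB acts at these promoters in these cells was not tested. RefSeq windows from 250 bases before to 50 bases after the annotated start site were held for 9 of the 10 genes in the GRCr8 assembly, and Relb had no entry. The κB consensus, searched on both strands, occurred in 6 of the 9 genes, namely Nfkb1, Nfkb2, Rel, Nfkbia, Nfkbie and Nfkbiz. It occurred in 1239 of all 27457 genes with such a window (4.51%) and in 594 of the 10925 tested genes with one (5.44%). The interferon-γ element TTCNNNGAA, searched the same way, was present in 0 of the 9 genes and in 9.39% of all genes, which says only that these letters are not in these windows. Capitals mark the κB consensus match in the strand on which the gene is read, 5′ to 3′. The windows of Nfkb2 (chr1:255108124-255108373, plus strand) and Nfkbia (chr6:78597073-78597322, minus strand) are given up to the base before the start site, since these were the subunit and the classical IκB with the largest increases after CYT.
Nfkb2: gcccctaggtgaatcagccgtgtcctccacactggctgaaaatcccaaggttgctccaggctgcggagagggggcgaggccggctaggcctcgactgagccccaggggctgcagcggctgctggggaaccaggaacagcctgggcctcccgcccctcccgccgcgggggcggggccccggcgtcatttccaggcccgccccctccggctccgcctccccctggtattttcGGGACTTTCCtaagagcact
Nfkbia: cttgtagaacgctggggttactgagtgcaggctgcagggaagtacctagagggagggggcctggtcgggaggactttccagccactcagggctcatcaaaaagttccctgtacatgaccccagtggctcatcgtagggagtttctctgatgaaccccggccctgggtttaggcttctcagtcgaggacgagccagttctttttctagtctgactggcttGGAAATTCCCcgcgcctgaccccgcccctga
The Nfkb2 match read GGGACTTTCC at positions -20 to -11 from the start site, and the Nfkbia match lay on the opposite strand, as GGGAATTTCC, at -31 to -22. The other matches are shown in shorter windows, for Nfkb1 (chr2:226805440-226805469, minus strand), Rel (chr14:101921985-101922045, minus strand), Nfkbie (chr9:22948002-22948061, minus strand) and Nfkbiz (chr11:58251683-58251720, plus strand).
Nfkb1: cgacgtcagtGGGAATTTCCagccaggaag
Rel: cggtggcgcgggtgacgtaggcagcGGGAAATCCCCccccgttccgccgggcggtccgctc
Nfkbie: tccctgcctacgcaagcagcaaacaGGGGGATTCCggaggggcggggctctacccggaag
Nfkbiz: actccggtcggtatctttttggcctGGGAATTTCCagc
Nfkb1 and Nfkbiz carried the same GGGAATTTCC, at positions 4 to 13 and -13 to -4. The Rel capitals cover 3 overlapping matches on both strands between -82 and -72, and the Nfkbie match, GGGGGATTCC, was the farthest from its start site, at -164 to -155. Nfkbid has 4 annotated windows and none of them held the consensus. Nor did those of Rela and Nfkbib, whose last 100 bases before the start site (chr1:212354236-212354335, plus strand, and chr1:93181388-93181487, minus strand) are shown for contrast.
Rela: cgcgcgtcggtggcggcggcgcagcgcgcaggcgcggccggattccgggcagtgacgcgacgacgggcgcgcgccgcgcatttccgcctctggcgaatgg
Nfkbib: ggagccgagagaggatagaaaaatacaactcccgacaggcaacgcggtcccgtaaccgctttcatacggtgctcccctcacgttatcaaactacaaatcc
Among these 9 genes, Rela, without a match, had the smallest log2 fold change with CYT (0.57), while Nfkbib, also without one, and Nfkbie, with one, had values of 1.33 and 1.32. Rel, whose matches overlap in a single stretch of bases, had the second smallest (0.80), below Nfkbid (1.07), which has none. The remaining genes, Nfkb2 (3.63), Nfkbiz (3.06), Nfkbia (3.00) and Nfkb1 (1.95), all with a match, had the largest values. Whether a match and the response to CYT go together was not tested.

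**Figure D1:**
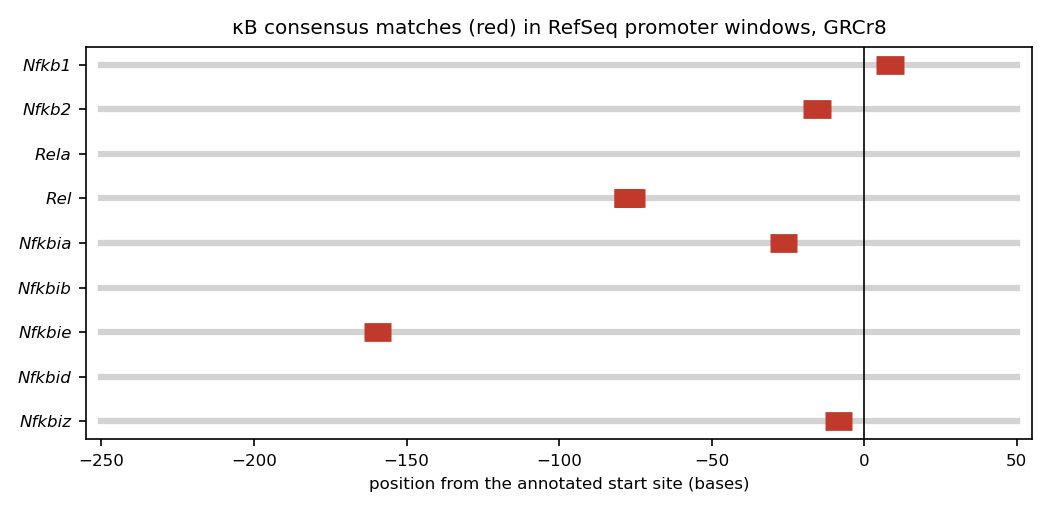
κB consensus matches (red) in the RefSeq promoter windows (grey bars) of 9 genes; the x axis is the position in bases from the annotated start site (vertical line). Matches are present in 6 genes, between position -164 (Nfkbie) and position 13 (Nfkb1), and Rela, Nfkbib and Nfkbid hold none.

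Library totals ran from 15812640 to 20246806 assigned reads, and the replicates of a group differed beyond counting error (chi-square per degree of freedom 7.09 to 27.2). The summed level of 10 β-cell markers was 33110 to 39536 CPM (reads of a gene scaled to a fixed library size) in untreated, 28907 to 33949 in IL-1βlow, 10677 to 10983 in CYT and 15580 to 20176 in IL-1βlow + CYT libraries. Most of this sum was insulin, with untreated means of 23994 CPM for Ins1 and 8097 CPM for Ins2. By the thresholds used below, 7 of the 9 tested markers were lower with CYT and 0 higher (11.6% and 10.0% of all genes). The 6 macrophage and leukocyte markers summed to at most 1.72 CPM in untreated, 1.05 in IL-1βlow, 3.59 in CYT and 5.77 in IL-1βlow + CYT libraries, with Ptprc and Itgam at 0 throughout. The part of these shifts in the results that follow was not tested, and in such bulk samples fewer cells of a type and less RNA per cell cannot be told apart. Values below are CPM after TMM (trimmed mean of M-values) scaling, which allow comparison of 1 gene across libraries and not of different genes, since transcript length was not available. Nfkbid overlaps Aplp1 and Nfkbib overlaps LOC103689966 in the RefSeq annotation, and the strand setting of the counting is not given in the sources used here, so that their values are uncertain.

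CYT raised the whole family. All 10 genes passed an adjusted p of 0.01 (Benjamini-Hochberg, over all tested genes) by the quasi-likelihood test of edgeR, against 25.2% of all genes higher by that rule. With the additional minimum of 1 on the log2 scale, 8 of 10 were higher, against 10.0% of all genes. The exceptions were Rela and Rel. For all 10 genes, the CYT libraries lay above every untreated library, as did 34.0% of all tested genes. The median log2 fold change of the 10 was 1.64, beside -0.04 over all genes.

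**Figure D2:**
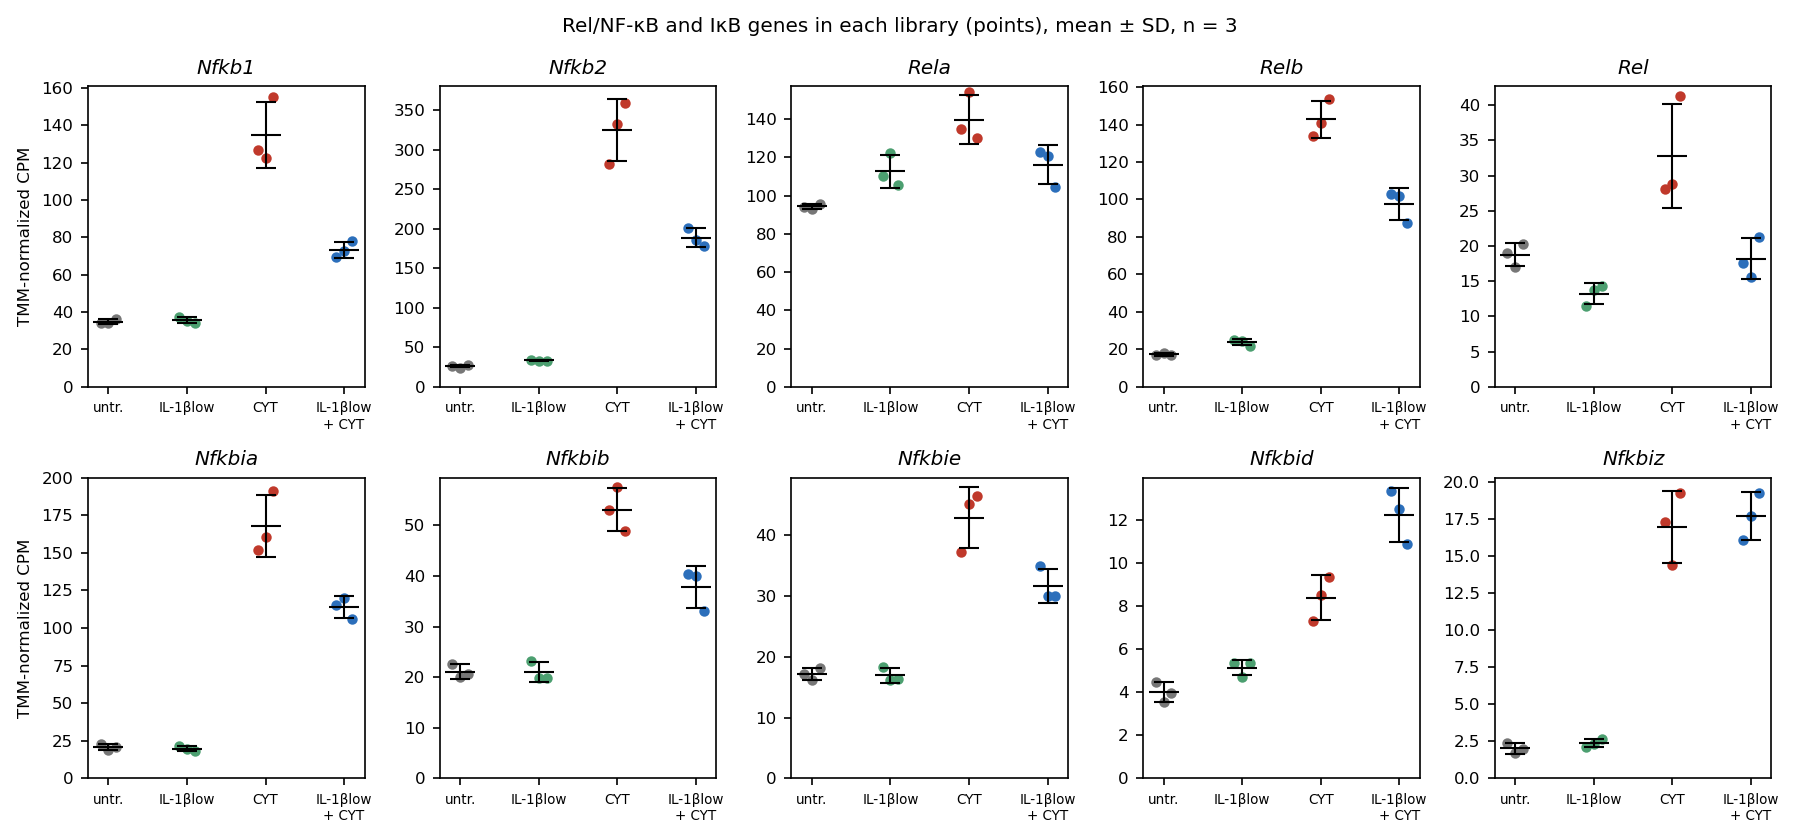
TMM-normalized CPM (y axis, from 0, a separate scale per gene) of each gene in the 4 groups (x axis); points are libraries, and bars are the mean ± SD, n = 3. CYT libraries lie above untreated libraries for every gene, and IL-1βlow + CYT libraries lie between these groups for Nfkb1, Nfkb2, Rela, Relb, Nfkbia, Nfkbib and Nfkbie.

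Nfkb2, which encodes the p100 precursor of the non-canonical subunit p52, had the largest increase. Its level was 27.0, 24.3 and 27.6 CPM in the untreated libraries and 282.6, 332.1 and 359.6 CPM in the CYT libraries. This is a 12.3-fold rise (log2 fold change 3.63, SE 0.10, adjusted p = 5.2e-12), which ranked 221 among all tested genes from the highest. Relb, whose product pairs with p52, rose from 17.0, 18.3 and 17.0 CPM to 134.0, 140.6 and 153.7 CPM. Its log2 fold change was 3.03 (SE 0.10, adjusted p = 1.8e-11). Both partners of the non-canonical dimer therefore rose more than 8-fold, with no overlap between groups. Nfkb1, which encodes the p105 precursor of p50 in the classical dimer, stood at 34.2, 34.2 and 36.2 CPM in untreated libraries. In CYT libraries it was at 126.6, 122.4 and 154.9 CPM, a log2 fold change of 1.95 (SE 0.10, adjusted p = 7.9e-10).

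The subunits with transactivation domains of the classical branch had the smallest changes. Rela, which encodes p65, was at 94.1, 93.2 and 95.6 CPM in untreated and 134.6, 154.2 and 130.3 CPM in CYT libraries. Its log2 fold change of 0.57 (SE 0.09, adjusted p = 8.8e-05) was below the fold minimum. Rel, which encodes c-Rel, was at 19.0, 17.1 and 20.3 CPM in untreated and at 28.1, 28.8 and 41.3 CPM in CYT libraries, with CYT replicate 3 well above the others. Its log2 fold change was 0.80 (SE 0.16, adjusted p = 6.2e-04) and lay between 0.63 and 0.94 when single libraries were left out. The groups did not overlap for either gene.

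The 3 classical IκB genes rose together, but to different extents. Nfkbia encodes IκBα, the inhibitor whose resynthesis is known to end a bout of NF-κB activity. It was at 22.9, 18.9 and 20.9 CPM in untreated and 151.6, 160.6 and 191.4 CPM in CYT libraries, an 8.02-fold rise (log2 fold change 3.00, SE 0.11, adjusted p = 5.4e-11). Nfkbib, which encodes IκBβ, was at 22.7, 20.1 and 20.6 CPM before and 53.0, 57.5 and 48.9 CPM after CYT (log2 fold change 1.33, SE 0.11, adjusted p = 1.7e-07). The gene that overlaps it, LOC103689966, went the other way, from a mean of 114.9 to 69.8 CPM (log2 fold change -0.72, adjusted p = 3.6e-04). Nfkbie, which encodes IκBε, was at 17.1, 16.2 and 18.1 CPM in untreated and 37.2, 45.1 and 46.5 CPM in CYT libraries (log2 fold change 1.32, SE 0.12, adjusted p = 2.2e-07). Nfkbib and Nfkbie thus had nearly the same fold, and both were well below that of Nfkbia.

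Both atypical IκB genes, whose products act in the nucleus, also rose. Nfkbiz encodes IκBζ, a co-activator of a subset of secondary NF-κB targets. It was at 2.41, 1.72 and 1.95 CPM in untreated and 17.3, 14.4 and 19.2 CPM in CYT libraries, on 29 to 42 reads per untreated library (log2 fold change 3.06, SE 0.17, adjusted p = 2.8e-09). Nfkbid, which encodes IκBNS, was at 4.47, 3.55 and 3.95 CPM in untreated and 7.28, 8.51 and 9.35 CPM in CYT libraries. Its log2 fold change was 1.07 (SE 0.16, adjusted p = 4.2e-05), and Aplp1, the gene it overlaps, was at 988.3 and 1054.2 CPM in these groups (adjusted p = 0.55).

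No gene of the family passed the thresholds with the low dose alone. Between IL-1βlow and untreated cells, 0 of the 10 genes passed an adjusted p of 0.01 and a log2 minimum of 0.6 in edgeR's quasi-likelihood test, against 0.433% of all genes. At an unadjusted p of 0.05, 5 passed (13.8% of all genes), and by DESeq2 or edgeR's exactTest the count at the same thresholds was also 0. Relb had the smallest p, at 24.8, 24.5 and 22.0 CPM in IL-1βlow libraries, all above the untreated ones (log2 fold change 0.45, SE 0.10, adjusted p = 0.036). Its adjusted p was 0.0054 by DESeq2 and 0.0089 by edgeR's exactTest, and 0.027 to 0.19 with a library left out, while its log2 fold change stayed below the minimum. Nfkb2 was at 34.4, 33.2 and 32.9 CPM (log2 fold change 0.35, adjusted p = 0.12), and Rela was at 110.3, 122.0 and 105.4 CPM (0.26, adjusted p = 0.23). These 3 and Nfkbid (0.37, adjusted p = 0.34) were the 4 genes with every IL-1βlow library above every untreated library, a pattern seen in 13.0% of all genes. Rel was the single gene with every IL-1βlow library lower, at 11.5, 13.8 and 14.4 CPM (log2 fold change -0.51, SE 0.17, adjusted p = 0.19), as were 10.6% of all genes. For Nfkb1, Nfkbia, Nfkbib and Nfkbie the log2 fold changes ranged from -0.08 to 0.03, and the 95% confidence interval for Nfkbia ran from -0.33 to 0.16. Nfkbiz was at 2.10, 2.33 and 2.65 CPM, also overlapping the untreated range (0.22, adjusted p = 0.62).

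**Figure D3:**
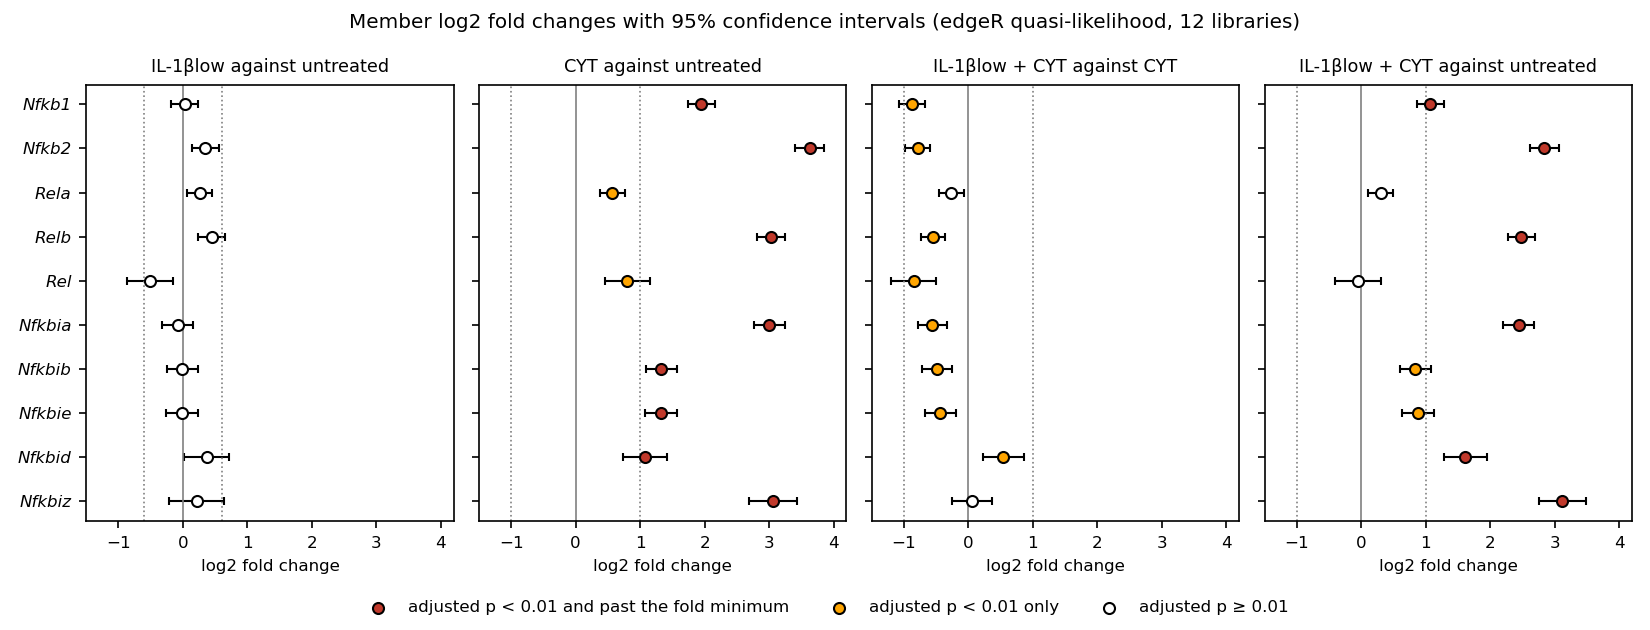
Log2 fold change (x axis) of each gene with its 95% confidence interval in 4 comparisons, from edgeR's quasi-likelihood fit of 12 libraries; dotted lines mark the fold minimum and the fill marks which thresholds were passed. CYT moves all genes to the right of 0, and IL-1βlow + CYT lies left of CYT for 8 genes, at 0.06 for Nfkbiz and right of it for Nfkbid.

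Preconditioning lowered most of the family under the challenge, by less than the fold minimum. Between IL-1βlow + CYT and CYT, 0 of the 10 genes passed both thresholds in edgeR's quasi-likelihood test, against 12.5% of all genes in either direction. Without the fold minimum, 7 were lower (19.2% of all genes) and 1 was higher (17.1%), with a median log2 fold change of -0.52 over the 10 and 0.02 over all genes. The groups did not overlap for 8 genes that were lower (27.6% of all genes) and 1 that was higher (26.8%). At an unadjusted p of 0.05, 9 genes passed (56.7% of all genes), and DESeq2 and edgeR's exactTest also gave 0 at both thresholds.

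Among the subunits, Nfkb1 had the largest difference. Its IL-1βlow + CYT libraries were at 69.6, 72.4 and 78.1 CPM, 0.545 of the CYT level (log2 fold change -0.88, SE 0.09, adjusted p = 4.3e-06). Rel was at 17.6, 15.7 and 21.3 CPM in IL-1βlow + CYT libraries (-0.85, SE 0.16, adjusted p = 5.9e-04). Those Rel values overlapped the untreated ones, with a log2 fold change of -0.05 against untreated cells (95% confidence interval -0.40 to 0.30, adjusted p = 0.87). Rel was the one gene of the family whose libraries after both treatments overlapped those of untreated cells. Nfkb2 was at 201.5, 185.7 and 177.9 CPM (-0.79, SE 0.09, adjusted p = 8.7e-06), and Relb was at 102.9, 102.1 and 87.4 CPM (-0.55, SE 0.09, adjusted p = 1.5e-04). Rela, at 123.0, 120.8 and 104.7 CPM, did not pass (-0.27, SE 0.09, adjusted p = 0.024), although every library was below the CYT ones.

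The classical IκB genes were lower by similar amounts. Nfkbia was at 115.6, 120.0 and 105.7 CPM in IL-1βlow + CYT libraries (log2 fold change -0.56, SE 0.10, adjusted p = 4.3e-04). Nfkbib was at 40.4, 40.0 and 33.0 CPM (-0.49, SE 0.11, adjusted p = 0.002), while the overlapping LOC103689966 rose to a mean of 224.4 CPM (1.69, adjusted p = 3.8e-07). Nfkbie was at 35.0, 30.0 and 30.0 CPM (-0.44, SE 0.11, adjusted p = 0.0045). All 3 were thus between their untreated and CYT levels in every library.

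Neither atypical gene had a lower mean than with CYT alone, but whether these genes differ from the rest was not tested. Nfkbiz was at 16.1, 17.7 and 19.3 CPM in IL-1βlow + CYT libraries, which overlapped the CYT libraries (log2 fold change 0.06, 95% confidence interval -0.25 to 0.37, adjusted p = 0.76). Nfkbid was higher than with CYT alone, at 13.3, 12.5 and 10.9 CPM (0.54, SE 0.15, adjusted p = 0.0067), with no overlap. Aplp1, its overlapping neighbour, went from a mean of 1054.2 to 1154.6 CPM, a log2 fold change of 0.13 (adjusted p = 0.41). That result cannot show whether these genes share reads, so that the Nfkbid values remain uncertain. Nfkbid was the sole gene of the 10 whose IL-1βlow + CYT libraries all lay above every other library.

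Against untreated cells, most but not all of the genes were higher in preconditioned, challenged cells. In edgeR's quasi-likelihood test 6 of 10 genes passed both thresholds upwards, against 3.85% of all genes: Nfkb1 (log2 fold change 1.07), Nfkb2 (2.84), Relb (2.48), Nfkbia (2.44), Nfkbid (1.61) and Nfkbiz (3.12). Without the fold minimum there were 8 (8.24% of all genes), with Nfkbib at 0.84 and Nfkbie at 0.88. Rela, at 0.30 (adjusted p = 0.027), and Rel, at -0.05, did not pass. For 9 genes, all but Rel, the libraries lay above the untreated ones, as for 20.2% of all genes.

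Within preconditioned cells, the challenge again raised 6 of 10 genes past both thresholds, against 2.92% of all genes. Nfkbiz (log2 fold change 2.90), Nfkbia (2.53), Nfkb2 (2.49) and Relb (2.04) led, followed by Nfkbid (1.25) and Nfkb1 (1.04). The Nfkb1 value was close to the minimum and was 0.99 without IL-1βlow + CYT replicate 3. Nfkbib (0.85) and Nfkbie (0.90) passed without the minimum, making 8 genes (5.57% of all genes). Rela was at 0.05 (95% confidence interval -0.15 to 0.24, adjusted p = 0.84), and Rel at 0.46 (adjusted p = 0.093). The ranges did not overlap for 9 genes, Rela being the exception (14.2% of all genes).

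The difference between the responses to CYT with and without preconditioning was then tested as an interaction, which uses the same 12 libraries and shares the CYT libraries with the comparisons above. Nfkb2 passed both thresholds, its response being smaller by a log2 difference of -1.13 (SE 0.13, adjusted p = 3.2e-05) in edgeR's quasi-likelihood test. It was the 1 gene of 10 to do so, against 5.20% of all genes lower by that rule. Relb had a difference of -1.0 (SE 0.13, adjusted p = 7.3e-05) that fell just short of the minimum before rounding. It passed with the replicate block, with RLE size factors, with either other filter, by DESeq2 and in 9 of the 12 fits that left out a library, so that 2 genes was the more frequent count. Without the minimum 4 genes had a smaller response, against 12.5% of all genes, with Nfkb1 at -0.91 (adjusted p = 1.9e-04) and Rela at -0.52 (adjusted p = 0.0059) beside Nfkb2 and Relb. These 4 were all subunits. The interaction also takes in the difference between the unchallenged groups. With IL-1βlow alone, the log2 fold changes were 0.35 for Nfkb2, 0.45 for Relb, 0.26 for Rela and 0.03 for Nfkb1, none of which passed the thresholds.

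For the inhibitors the interaction was smaller and did not pass. Nfkbia and Nfkbib were both at -0.48 (adjusted p = 0.025 and 0.027), and Nfkbie was at -0.43 (adjusted p = 0.051). Nfkbid (0.18, 95% confidence interval -0.29 to 0.65) and Nfkbiz (-0.16, -0.68 to 0.37) had intervals that included 0, as had Rel (-0.34, -0.84 to 0.15). An effect passing in the subunits and not in the inhibitors does not show that these groups of genes differ, which was not tested.

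**Figure D4:**
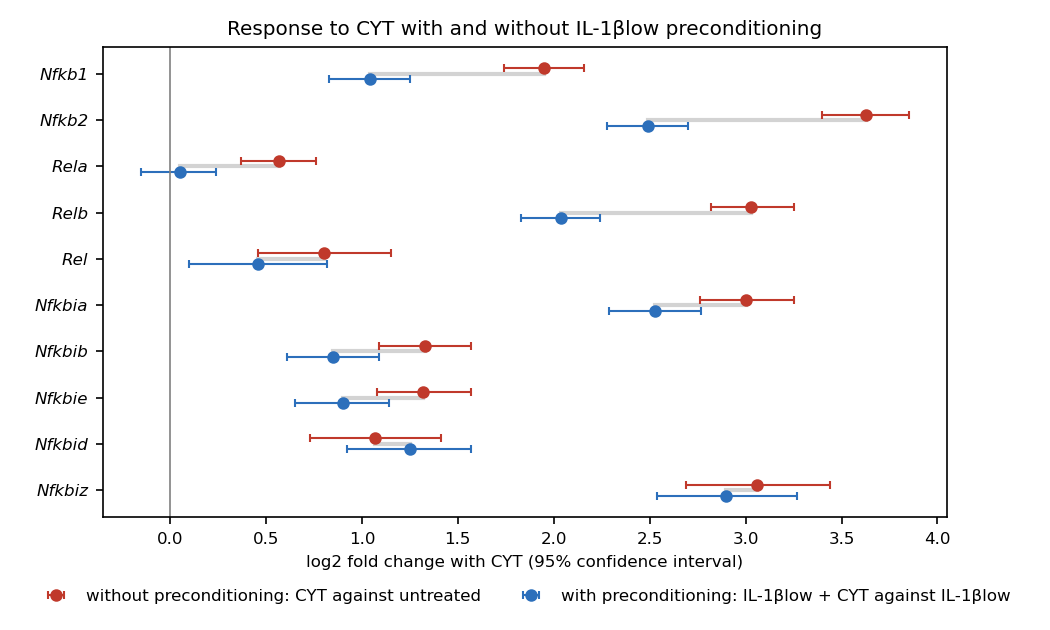
Log2 fold change with CYT (x axis) and its 95% confidence interval for each gene, in cells without preconditioning (red) and with it (blue); the grey bar joins them. The bar is longest for Nfkb2 (-1.13) and Relb (-1.0), and Nfkbid alone has its blue point to the right.

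Ratios of counts within a library, which do not depend on the scaling between libraries, were compared for 4 pairs by a two-sided exact permutation test. With 3 libraries against 3, the smallest p this allows is 0.1, so none of the 8 comparisons could pass 0.05. The Nfkb2 to Nfkb1 ratio was 0.789, 0.712 and 0.762 in untreated, 0.922, 0.936 and 0.964 in IL-1βlow, 2.23, 2.71 and 2.32 in CYT and 2.89, 2.57 and 2.28 in IL-1βlow + CYT libraries. It differed between CYT and untreated cells by 1.68 on the log2 scale without overlap (exact permutation p = 0.1), and between the challenged groups by 0.09 (p = 0.6), with overlap. The Nfkb2 to Nfkb1 ratio was thus higher in every CYT than in every untreated library. The IL-1βlow libraries also lay above the untreated ones, a difference that was not tested.

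The Relb to Rela ratio had a mean of 0.185 ± 0.0101 (SD, n = 3) in untreated, 0.212 ± 0.0123 in IL-1βlow, 1.03 ± 0.137 in CYT and 0.839 ± 0.00531 in IL-1βlow + CYT libraries. The challenged groups did not overlap, differing by -0.29 on the log2 scale (exact permutation p = 0.1). The Nfkbia to Rela ratio, inhibitor to classical subunit, went from 0.222 ± 0.0203 in untreated and 0.176 ± 0.0182 in IL-1βlow to 1.21 ± 0.227 in CYT and 0.981 ± 0.0369 in IL-1βlow + CYT libraries, and again differed by -0.29 between the challenged groups without overlap (exact permutation p = 0.1). By contrast, the Nfkbie to Nfkbib ratio averaged 0.815, 0.810, 0.813 and 0.842 in the 4 groups in the same order, with log2 differences of -0.01 (exact permutation p = 1) and 0.06 (p = 0.8). The ranges of this ratio overlapped in both comparisons, and the uncertainty of the Nfkbib counts applies to it.

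**Figure D5:**
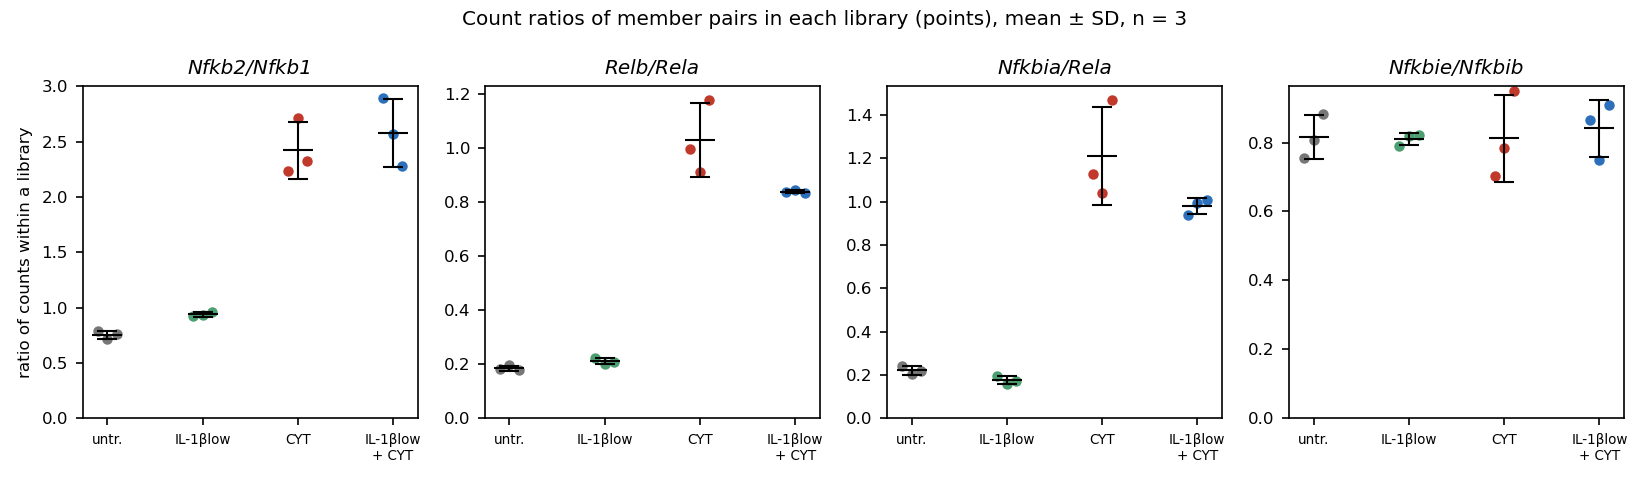
Ratio of counts within each library (y axis, from 0) for 4 gene pairs in the 4 groups (x axis); points are libraries, bars are the mean ± SD, n = 3. The first 3 ratios are above their untreated range in every challenged library, whereas Nfkbie/Nfkbib stays near 0.8.

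The core genes of the IKK complex, which releases NF-κB, had log2 fold changes with CYT between -0.45 and 0.38. Of 21 tested genes of the IKK complex and upstream signalling, 5 were higher and 0 lower with CYT (10.0% and 11.6% of all genes), with a median log2 fold change of 0.09 beside -0.04 for all genes. In edgeR's quasi-likelihood test, Chuk (IKKα) was at -0.45 (adjusted p = 0.065), Ikbkb (IKKβ) at -0.30 (adjusted p = 0.0069), Ikbkg (NEMO) at 0.38 (adjusted p = 0.0051) and Map3k14 (NIK, the kinase of the non-canonical branch) at -0.05 (adjusted p = 0.78). The largest rise in the list was that of the IKK-related kinase Ikbke, from a mean of 0.0992 to 13.4 CPM (adjusted p = 5.8e-09). Its mean was also only 0.11 CPM in IL-1βlow cells. It thus passed the filter on low counts only through the challenged groups, so that its rise was largely fixed in advance. Between IL-1βlow + CYT and CYT, 3 of the 21 were lower and 0 higher (5.92% and 6.54% of all genes). The largest of these was Irak2, a kinase that acts below the IL-1 receptor, from 21.6 to 6.84 CPM (-1.66, adjusted p = 3.5e-06). With IL-1βlow alone 0 of the 21 passed (0.433% of all genes).

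Of 18 tested genes for other IκB-like proteins and NF-κB regulators, 5 were higher and 0 lower with CYT (10.0% and 11.6% of all genes), with a median log2 fold change of 0.28 beside -0.04 for all genes. Zc3h12a, which encodes the RNase regnase-1, rose most, from 5.35 to 138.2 CPM (log2 fold change 4.69, adjusted p = 1.3e-12). Between IL-1βlow + CYT and CYT, 2 were lower and 1 was higher (5.92% and 6.54% of all genes). Tnip2, which encodes an A20-binding protein, went from 14.3 to 4.54 CPM (-1.65, adjusted p = 3.5e-06). Bcl3, which encodes another nuclear IκB protein, was the one that was higher, from 4.21 to 8.53 CPM (1.02, adjusted p = 0.0011), the same direction as Nfkbid. With CYT alone Bcl3 was at -0.17 (adjusted p = 0.52).

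Most of the tested target genes of NF-κB rose with CYT and were lower after preconditioning. Some of them, such as Tap1 and Irf1, are also known for induction by interferon-γ. Since CYT held both IL-1β and IFN-γ, the parts of these cytokines cannot be told apart. Of 37 listed targets, 29 passed the filter on low counts. Of these, 26 were higher with CYT and 0 lower (10.0% and 11.6% of all genes). Of the 29, 11 had at most 3 counts in every untreated library and passed the filter only through other groups. For these a rise was largely fixed in advance. The same holds for Ptgs2, which had a mean of 0.274 CPM in untreated cells and passed the filter through the CYT group. Between IL-1βlow + CYT and CYT, 19 of the 29 were lower and 1 was higher (5.92% and 6.54% of all genes), with a median log2 fold change of -1.14 beside 0.02 for all genes. Among the 19, Ccl5, Ptgs2 and Tnfaip2 had a mean above 1 CPM in the CYT group alone. They passed the filter through that group, so that their lower values count for little. The median with CYT was 4.58, beside -0.04 for all genes, or 3.47 when the 11 genes with at most 3 counts in every untreated library were set to their lower bound. Nos2, which encodes inducible nitric oxide synthase, went from 0.0585 CPM in untreated to 568.7 in CYT and 48.8 in IL-1βlow + CYT cells (log2 fold change against CYT -3.54, adjusted p = 2.8e-08). Tnf was the target that was higher after preconditioning, from 8.0 to 17.4 CPM (1.11, adjusted p = 3.4e-04). The largest difference in the family between the same groups was that of Nfkb1 (-0.88).

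The genes whose levels followed each member most closely were found by Pearson's r of log2 CPM over the 12 libraries, which share the 4 groups, so that r is a description only. Nfkb2 was among the 3 nearest genes of Relb (r = 0.997), and Ckmt1 and Pde1b were among the 3 nearest genes of both. Csf1, a macrophage growth factor, was among the 3 nearest of Nfkb2 (r = 0.997) and Nfkbia (r = 0.993). Zc3h12a was nearest to Nfkbia (r = 0.995), and Dennd2b to Nfkb1 (r = 0.997). Nfkbie was nearest to Tap1, Tap2 and Irf1, genes known for induction by interferon-γ (r = 0.99 for Tap1). Nfkbib was nearest to Pim2 (r = 0.99). Nfkbid was nearest to Dpysl3 (r = 0.976), whose mean went from 25.5 CPM in untreated to 188.4 in IL-1βlow + CYT cells. Nfkbiz was nearest to Atp11a (r = 0.994), Rela to Rpl29 (r = 0.994) and Rel to Lrig2 (r = 0.97). Within the family, r ran from 0.324 (Rel and Nfkbid) to 0.997.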

How the data were processed

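The authors trimmed the reads, aligned them to the rat assembly mRatBN7.2 with Rsubread and counted them per gene with featureCounts, and the deposited values are raw counts per gene symbol and library, with no normalization; FastQC, featureCounts, R 4.3.3 and the build are named in the submitters' processing notes. All columns were used. In R 4.3.3, edgeR 4.0.16 kept genes with a CPM over 1 in at least 2 libraries, applied TMM scaling, and fitted 4 group means to 12 libraries (glmQLFit, glmQLFTest) with Benjamini-Hochberg adjustment over all 14324 genes. Thresholds were an adjusted p of 0.01 and a log2 minimum of 0.6 (IL-1βlow against untreated) or 1 (the other comparisons), the study's own. The fit was also run on simulated data with far fewer changed genes than were called with CYT here. That run does not test the fit under the conditions of these data. The common biological coefficient of variation was 0.123. Depth was 15812640 to 20246806 counts per library (median 17461925.5). The labels call the libraries biological replicates without saying how the cultures were grown. The p-values set group differences against the spread between these libraries, which may not be the spread between independent experiments. Deviations from the group means of same-numbered libraries correlated in every CYT and IL-1βlow + CYT pair (r 0.116 to 0.475), in every IL-1βlow and IL-1βlow + CYT pair (0.179 to 0.52) and in every IL-1βlow and CYT pair (0.131 to 0.446); pairs with untreated libraries ran from -0.188 to 0.181. Alternatives were RLE size factors, DESeq2 1.42.0, edgeR's exactTest, other filters, only the groups compared, a replicate block, looser thresholds and leaving out each library. Named were all 10 members, the largest called change in each direction of each list, 4 core IKK genes, and the 3 genes most like each member with a mean log2 CPM over 2. Members and lists were chosen with earlier results of these data known. Sequences are from RefSeq (GRCr8), a build other than that of the counts. Nfkb2 has a RefSeq-listed pseudogene, not analysed here.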

Additional observations from a re-analysis of the deposited data

Results flagged for a closer look

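Nfkb2 was singled out because its response to CYT differed between preconditioned and unconditioned cells by a test of the difference itself. The log2 interaction was -1.13 (SE 0.13, edgeR's quasi-likelihood test, adjusted p = 3.2e-05). Nfkb2 rose by a log2 fold change of 3.63 without preconditioning and by 2.49 with it. The interaction combines a lower level in challenged cells (-0.79 against CYT) with a higher one in unchallenged cells (0.35 against untreated). The latter did not pass (adjusted p = 0.12 in the same test). The interaction stayed between -1.25 and -1.08 when each of the 12 libraries was left out in turn. Of all genes, 5.20% were lower by both thresholds. Nor was Nfkb2 alone in the family. Relb had a nearly equal interaction of -1.0 (adjusted p = 7.3e-05 in the same test), just short of the minimum. Nfkb1 (-0.91) and Rela (-0.52) passed the adjusted p of 0.01 without the minimum.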

How the results depend on the processing

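For CYT against untreated, IL-1βlow + CYT against untreated and IL-1βlow + CYT against IL-1βlow, the number of members called stayed within 1.5 times that reported under each alternative run. With an adjusted p under 0.05 and no fold minimum, the members called went from 0 to 1 (IL-1βlow alone), from 0 to 9 (IL-1βlow + CYT against CYT) and from 1 to 6 (interaction). For the interaction, RLE size factors, no filter on low counts, a minimum of 10 counts in every library and DESeq2 each gave 2 members in place of 1, since Relb then passed the fold minimum, and leaving out single libraries gave 1 to 2 (2 in 9 of 12 fits). The replicate block (the pairing by replicate number) also gave 2 members for the interaction and changed no other count of members. Among single members, Nfkb1 in IL-1βlow + CYT against IL-1βlow was at 0.99, below the minimum, without IL-1βlow + CYT replicate 3, and no member that was called in a comparison changed direction. Over all genes, the 62 called with IL-1βlow became 229 without a filter, 141 with the replicate block, 138 by exactTest, 138 by DESeq2, 193 at the looser thresholds and 16 to 29 in 5 of the 6 fits that left out a library of these groups. The cause of these shifts was not tested. The looser thresholds gave 8926 in place of 3096 genes for CYT, 7267 in place of 1785 for IL-1βlow + CYT against CYT, 3124 in place of 858 and 1855 in place of 556 for IL-1βlow + CYT against untreated and IL-1βlow, and 5337 in place of 1530 for the interaction. Depth limited Nfkbiz and Nfkbid most, with 29 to 42 and 60 to 78 reads in each untreated library.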
